A study of Homo sapiens with 2 samples.

Results

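The genes described here are the numbered ZNF genes, those with a symbol of ZNF, a number and at most 1 further letter. They were chosen by their value in the library labelled THP1-NC, where each had 2 FPKM or more (FPKM, sequenced fragments for each kilobase of a transcript, scaled to library size). The deposited table lists 323 such genes, and 170 of them met this rule while 153 lay below it. The table holds 10987 genes, of which 8321 reached 2 FPKM in THP1-NC, and GENCODE 29 lists 509 protein-coding numbered ZNF genes. No listed gene was below 0.501 FPKM in both libraries.

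RNA sequencing was carried out on 2 libraries, both labelled as THP-1, a human monocytic leukaemia cell line, with blood as the tissue. The library labelled THP1-Bort came from cells exposed to bortezomib (bort) for 24 h, and the library labelled THP1-NC from untreated cells. Bort blocks the proteasome, which breaks down proteins tagged with ubiquitin. The labels give no concentration for the sequenced culture. Each condition has 1 library, no replicate and thus no possible test, so every comparison is between these libraries and not between conditions.

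ZNF genes encode proteins with C2H2 zinc fingers, small folds held by a zinc ion that in tandem arrays read a DNA sequence. Many of the arrays follow a KRAB box, which binds the corepressor TRIM28 and through it the histone methyltransferase SETDB1 and HP1 proteins, and which silences transposable elements. These genes multiplied by tandem duplication and lie in clusters, many of them on chromosome 19. Other ZNF proteins without a KRAB box act at promoters, on RNA, on ribosomes or at the mitotic spindle.

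Markers went against the labelled cell type. Of 18 erythroid genes 17 were in the table, at 6.47 to 1487 FPKM in THP1-NC and at 2.83 to 1536 FPKM in THP1-Bort. Their FPKM summed to 5132 in THP1-NC and 4466 in THP1-Bort. Of 20 monocytic and myeloid genes 8 were in the table, with sums of 47.8 and 108.7 FPKM. The table has no row for CD14, CSF1R or MPO. The libraries are therefore called by their labels. In bulk RNA fewer cells of a type and less RNA per cell cannot be told apart, and the part of cell type in any ZNF value was not tested. The 20 most abundant genes took 10.8% of the summed FPKM in THP1-NC and 21.6% in THP1-Bort, and the number of reads behind the values is unknown.

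The ZNF genes were on average weakly expressed, and they split in both directions. Their median level was 4.35 FPKM in THP1-NC, against 9.12 FPKM for all genes at 2 FPKM or more there, and 5.04 FPKM in THP1-Bort. Their summed FPKM was 1298 in THP1-NC and 1184 in THP1-Bort, or 0.618% and 0.534% of all FPKM. Fold changes are differences of log2(FPKM + 1), THP1-Bort minus THP1-NC, a scale that understates the change of low genes. By this measure 16 of the 170 genes (9.41%) were higher and 15 (8.82%) were lower in THP1-Bort by 2-fold or more. Among the 8321 genes at 2 FPKM or more in THP1-NC, 6.67% were higher and 13.1% lower, and among all 10987 genes 8.08% were higher and 10.2% lower. The median log2 fold change of the ZNF genes was 0.01, with 86 genes above 0 and 84 below, and that of the 8321 genes was -0.09. Because THP1-NC chose the genes and also stands in the contrast, these counts describe the libraries and support no statement about the family. Over all genes the fold changes followed the GC content of the transcript, and values with this trend removed by a lowess fit are given beside the calls they change. A KRAB-like box, scored on key residues of the annotated proteins, was found in 77 of the 170 genes.

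**Figure D1:**
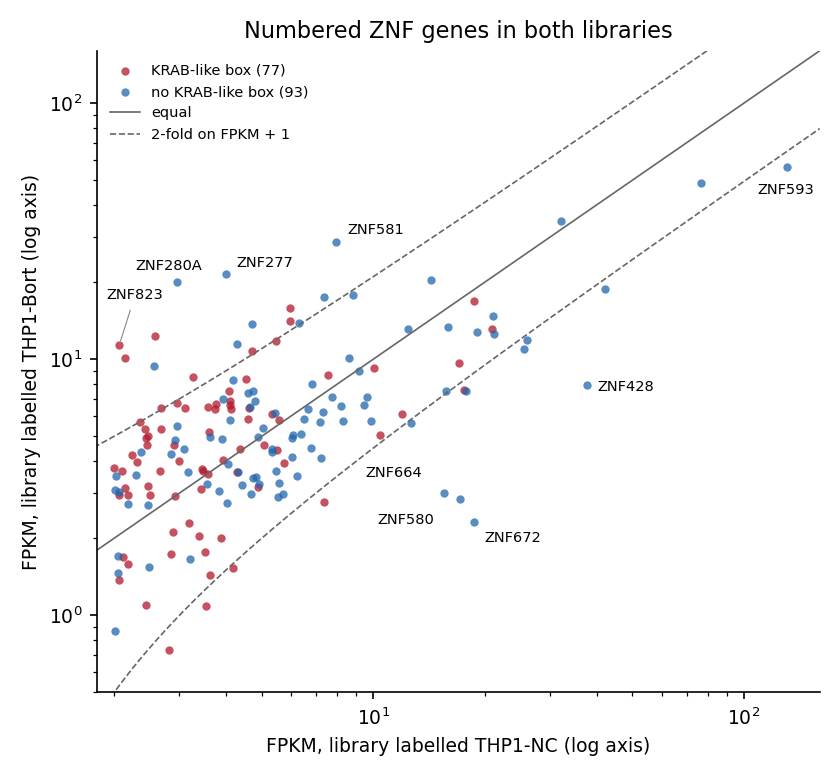
Level of each of the 170 numbered ZNF genes in THP1-NC (horizontal, FPKM, log axis) and in THP1-Bort (vertical, FPKM, log axis), 1 point per gene, in red for the 77 genes with a KRAB-like box and in blue for the 93 without one. The solid line marks equal levels and the dashed lines a 2-fold difference on FPKM + 1, with 16 genes on or above the upper dashed line and 15 on or below the lower one. The cut at 2 FPKM in THP1-NC forms the left edge of the cloud.

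The choice of library moved the counts. Of the 200 numbered ZNF genes at 2 FPKM or more in THP1-Bort, 32 were higher and 12 lower, beside 10% and 9.72% of all genes chosen in that way. Of the 191 genes whose mean reached 2 FPKM, 29 were higher and 14 lower, beside 9.07% and 11.8% of all genes. The median log2 fold change was 0.37 in the first of these sets and 0.20 in the second. The 153 genes under 2 FPKM in THP1-NC had a median of 0.34, with 16 higher and 1 lower. Their median level in THP1-NC was 0.955 FPKM. On FPKM + 1 a gene below 1 FPKM there cannot be lower by 2-fold, so most of this set could not be called lower. No share of all genes under the same limit is given, and nothing is concluded from these 2 counts. Scaling the libraries by their upper quartile or by their total without the 20 most abundant genes gave 20 genes higher (11.8%) and 12 lower (7.06%). With either scaling 8.6% of all genes at 2 FPKM or more in THP1-NC were higher and 10.9% lower. The genes just inside the limit were ZNF426 (2.00004 FPKM in THP1-NC and 3.77 FPKM in THP1-Bort), ZNF521 (2.01 and 0.872 FPKM) and ZNF397 (2.01 and 3.09 FPKM). Those just outside it were ZNF680 (1.96 and 7.41 FPKM), ZNF8 (1.93 and 2.50 FPKM) and ZNF841 (1.90 and 0.890 FPKM).

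The genes with the largest increases were at modest levels in THP1-NC and reached 9.37 to 28.6 FPKM in THP1-Bort. ZNF280A and ZNF280B are paralogues on chromosome 22, related to the suppressor of Hairy wing of Drosophila. ZNF280A was at 2.95 FPKM in THP1-NC and 20.01 FPKM in THP1-Bort, a log2 fold change of 2.41. ZNF280B was at 2.56 and 9.37 FPKM, a log2 fold change of 1.54. ZNF277, whose protein contacts the Polycomb protein BMI1 and the ribosomal protein RPS2, was at 3.99 and 21.6 FPKM, a log2 fold change of 2.18. None of these 3 genes carried a KRAB-like box, and all 3 stayed past 2-fold with the GC trend removed.

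KRAB-type genes came next in the order. ZNF823, a gene of chromosome 19 with 15 fingers, was at 2.06 FPKM in THP1-NC and 11.4 FPKM in THP1-Bort, a log2 fold change of 2.02. ZNF92 on chromosome 7 was at 2.58 and 12.3 FPKM, a log2 fold change of 1.90. ZNF189 on chromosome 9 was at 2.14 and 10.1 FPKM, a log2 fold change of 1.82. All 3 lay close to the limit of 2 FPKM in THP1-NC and above 10 FPKM in THP1-Bort. ZNF700, which also lies on chromosome 19, was at 5.96 and 15.8 FPKM, a log2 fold change of 1.27 (0.95 with the GC trend removed), and 15.9% of the 75-base stretches (windows) of its transcripts occur in another gene. Reads in such windows cannot be assigned to 1 gene with certainty.

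The remaining large increases were in genes of other kinds. ZNF581, a short gene with 4 fingers, was at 7.96 FPKM in THP1-NC and 28.6 FPKM in THP1-Bort, a log2 fold change of 1.72, and was the highest of the 16 in both libraries. ZNF24, a SCAN-box repressor of the VEGFA gene, was at 4.70 and 13.7 FPKM, a log2 fold change of 1.37. ZNF706, a protein with a single finger that represses KLF4 in embryonic stem cells, was at 4.30 and 11.5 FPKM, a log2 fold change of 1.23. ZNF24 and ZNF706 fell short of 2-fold once the trend with GC content was removed, at 0.83 and 0.84.

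The other 6 genes past 2-fold were ZNF83, ZNF770, ZNF195, ZNF266, ZNF440 and ZNF281. Their log2 fold changes lay between 1.02 for ZNF281 and 1.15 for ZNF83. None of the 6 stayed past 2-fold with the GC trend removed, at 0.83 for ZNF83, 0.55 for ZNF770, 0.81 for ZNF195, 0.91 for ZNF266, 0.72 for ZNF440 and 0.70 for ZNF281. ZNF770 had the highest level of the 6, at 7.35 FPKM in THP1-NC and 17.6 FPKM in THP1-Bort. ZNF440 had the lowest, at 2.67 and 6.45 FPKM. No gene of the 16 was at 10 FPKM or more in THP1-NC.

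The RefSeq promoters of 3 of these genes are given to show how far their composition differs, from 250 bases before the start to 50 bases after it (GRCh38.p14). ZNF280A lies at chr22:22520221-22520520 on the minus strand, ZNF277 at chr7:112206445-112206744 on the plus strand and ZNF823 at chr19:11738897-11739196 on the minus strand. CG dinucleotides are in capitals.
ZNF280A: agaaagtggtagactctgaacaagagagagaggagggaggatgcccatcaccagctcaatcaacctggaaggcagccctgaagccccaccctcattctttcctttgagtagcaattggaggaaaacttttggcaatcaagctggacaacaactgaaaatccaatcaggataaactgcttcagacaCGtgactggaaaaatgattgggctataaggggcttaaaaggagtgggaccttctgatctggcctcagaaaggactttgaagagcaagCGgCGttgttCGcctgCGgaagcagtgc
ZNF277: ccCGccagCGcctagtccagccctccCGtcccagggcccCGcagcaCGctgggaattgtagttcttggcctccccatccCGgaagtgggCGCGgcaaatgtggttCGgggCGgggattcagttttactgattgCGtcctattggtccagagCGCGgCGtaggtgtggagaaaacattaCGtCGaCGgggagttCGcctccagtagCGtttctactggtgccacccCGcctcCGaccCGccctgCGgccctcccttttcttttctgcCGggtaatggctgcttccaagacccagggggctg
ZNF823: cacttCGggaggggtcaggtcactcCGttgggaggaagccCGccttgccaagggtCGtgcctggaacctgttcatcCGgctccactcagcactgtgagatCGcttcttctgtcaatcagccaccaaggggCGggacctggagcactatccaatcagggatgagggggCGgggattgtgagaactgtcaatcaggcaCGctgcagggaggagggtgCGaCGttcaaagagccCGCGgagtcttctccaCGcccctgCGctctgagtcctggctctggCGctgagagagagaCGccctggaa
The ZNF280A promoter holds 5 CG dinucleotides, the fewest among the 146 ZNF genes with an entry. Those of ZNF277 and ZNF823 hold 24 and 17.

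**Figure D2:**
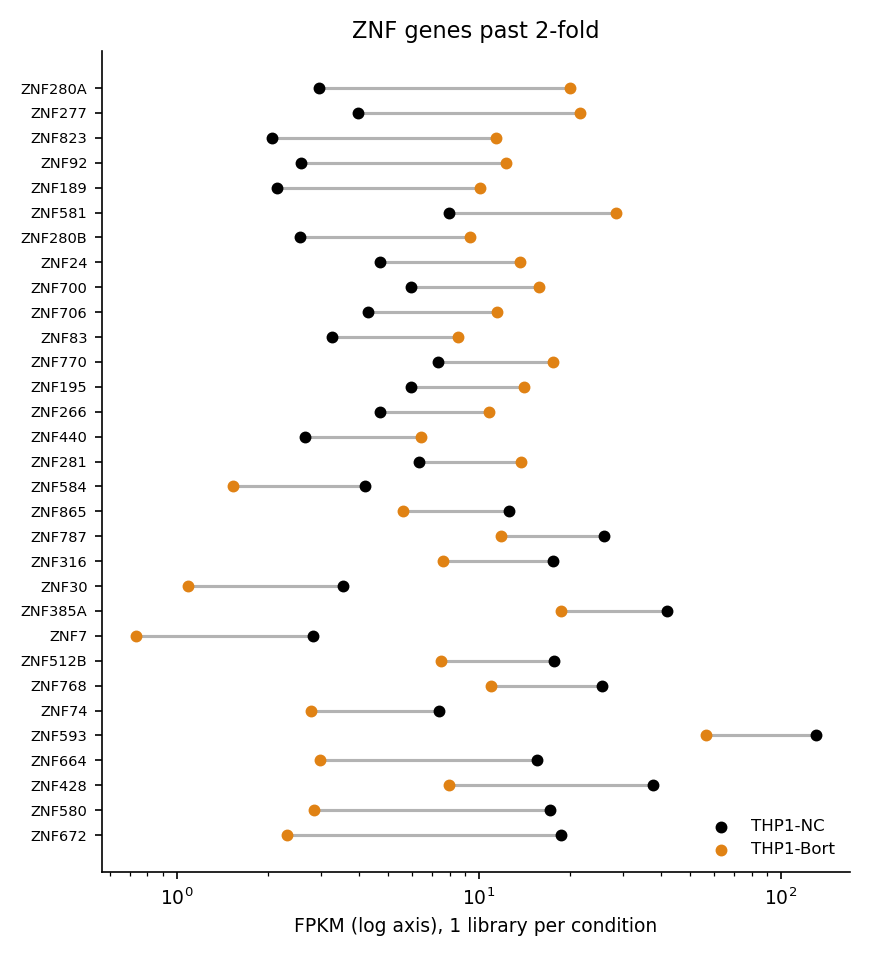
FPKM on a log axis in THP1-NC (black) and THP1-Bort (orange) for the 31 ZNF genes past 2-fold, ordered by log2 fold change from ZNF280A (2.41) to ZNF672 (-2.57), 1 library per condition and no error bars. The 16 increases started below 10 FPKM, whereas 11 of the 15 decreases started at 10 FPKM or more. On FPKM + 1 the level in THP1-NC limits how far a gene can fall, and that level also chose the genes. Among all genes 5.65% were lower by 2-fold from 2 to 3 FPKM in THP1-NC, and 19.5% from 10 FPKM.

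The largest decreases were in genes well expressed in THP1-NC, and 4 of them passed 4-fold. ZNF672, with 14 fingers, was at 18.7 FPKM in THP1-NC and 2.32 FPKM in THP1-Bort, a log2 fold change of -2.57. ZNF580 on chromosome 19, a gene with 3 fingers, was at 17.2 and 2.85 FPKM, a log2 fold change of -2.24. ZNF428, with a single finger, was at 37.7 and 7.95 FPKM, a log2 fold change of -2.11. ZNF664, with 9 fingers, was at 15.5 and 2.99 FPKM, a log2 fold change of -2.05. None of these 4 genes carried a KRAB-like box, and each stayed past 2-fold with the GC trend removed. ZNF664 overlaps RFLNA and a further gene on the same strand, so its fragments could be assigned to either.

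A further 11 genes were lower by a little over 2-fold on the FPKM + 1 scale. ZNF593, the most abundant ZNF gene, was at 130.4 FPKM in THP1-NC and 56.4 FPKM in THP1-Bort, a log2 fold change of -1.20. ZNF385A, also called HZF and a partner of p53, was at 42.1 and 18.8 FPKM, a log2 fold change of -1.13. ZNF768 was at 25.5 and 10.98 FPKM, and ZNF512B at 17.7 and 7.48 FPKM, with log2 fold changes of -1.15 and -1.14. These 4 genes had transcripts of 62.0% to 63.5% GC, and none was past 2-fold with the GC trend removed (-0.72, -0.58, -0.63 and -0.65 in that order). The KRAB-type gene ZNF74, in the region of chromosome 22 lost in DiGeorge syndrome, was at 7.36 and 2.78 FPKM, a log2 fold change of -1.15 (-0.81 with the GC trend removed). ZNF7, also of the KRAB type, was at 2.82 and 0.733 FPKM, a log2 fold change of -1.14 and the lowest level of any of the 170 genes in THP1-Bort. Its log2 fold change was -1.94 without a pseudocount. The other 5 genes past 2-fold were ZNF30, ZNF316, ZNF787, ZNF865 and ZNF584, with log2 fold changes of -1.12 to -1.03. ZNF30, at 3.55 and 1.09 FPKM, stayed past 2-fold with the GC trend removed (-1.30), whereas ZNF316 (-0.33), ZNF787 (-0.19), ZNF865 (-0.12) and ZNF584 (-0.77) did not.

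The promoters of ZNF672 and ZNF428 are given for comparison with those of the increased genes. They lie at chr1:248837974-248838273 on the plus strand and at chr19:43619580-43619879 on the minus strand (GRCh38.p14), with CG dinucleotides in capitals.
ZNF672: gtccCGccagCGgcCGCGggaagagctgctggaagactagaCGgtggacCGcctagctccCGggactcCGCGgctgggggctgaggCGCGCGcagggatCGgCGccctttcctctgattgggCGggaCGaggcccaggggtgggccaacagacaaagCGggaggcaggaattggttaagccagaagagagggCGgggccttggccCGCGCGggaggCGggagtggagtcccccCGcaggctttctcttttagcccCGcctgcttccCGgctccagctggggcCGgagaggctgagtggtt
ZNF428: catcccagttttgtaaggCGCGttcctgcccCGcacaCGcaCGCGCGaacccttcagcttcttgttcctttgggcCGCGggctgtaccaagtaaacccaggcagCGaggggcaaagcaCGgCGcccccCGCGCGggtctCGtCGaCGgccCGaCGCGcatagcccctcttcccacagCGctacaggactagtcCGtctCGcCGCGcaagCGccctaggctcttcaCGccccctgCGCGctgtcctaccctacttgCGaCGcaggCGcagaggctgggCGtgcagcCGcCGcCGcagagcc
ZNF672 holds 26 CG dinucleotides and ZNF428 holds 37. Over the 11 decreased genes with an entry the median was 35 (26 to 51), over the 14 increased genes 19.5 (5 to 32), over all 146 matched ZNF genes 24 and over all 27305 promoters 14. The number of CG dinucleotides thus overlapped between increased and decreased genes.

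ZNF580 and ZNF581 are neighbours on chromosome 19 that differed in opposite directions. Their starts lie 2647 bases apart on the plus strand, at chr19:55640752-55641051 for the ZNF580 promoter and chr19:55643399-55643698 for that of ZNF581 (GRCh38.p14). The former has 35 and the latter 23 CG dinucleotides, in capitals.
ZNF580: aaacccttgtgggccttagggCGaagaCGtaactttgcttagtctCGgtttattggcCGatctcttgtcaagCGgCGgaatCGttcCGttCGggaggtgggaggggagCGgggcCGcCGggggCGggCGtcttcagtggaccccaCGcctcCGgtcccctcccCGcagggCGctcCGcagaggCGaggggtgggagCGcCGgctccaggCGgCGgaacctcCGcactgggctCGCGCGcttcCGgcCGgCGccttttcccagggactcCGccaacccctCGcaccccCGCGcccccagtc
ZNF581: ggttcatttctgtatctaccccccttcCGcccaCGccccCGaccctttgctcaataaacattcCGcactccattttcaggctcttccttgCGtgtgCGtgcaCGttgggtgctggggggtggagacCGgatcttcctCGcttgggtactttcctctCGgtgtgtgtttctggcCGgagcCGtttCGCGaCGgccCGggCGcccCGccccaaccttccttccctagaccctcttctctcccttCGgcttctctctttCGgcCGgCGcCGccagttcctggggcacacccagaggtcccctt
The transcripts have a like GC content, 61.7% and 59.6%. With the GC trend removed the log2 fold changes were -1.78 for ZNF580 and 2.11 for ZNF581. In the annotation the genes overlap each other and CCDC106 on the same strand, and 14.4% of the 75-base windows of ZNF581 occur in another gene. How fragments were divided between them was not tested.

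Genes with a known role were then taken from a list of 44, of which 40 were in the table and 29 reached 2 FPKM in THP1-NC. Of the 29, 4 were higher (ZNF24, ZNF277, ZNF281 and ZNF706) and 2 lower (ZNF385A and ZNF593) by 2-fold or more, beside 6.67% and 13.1% of all genes at 2 FPKM or more in THP1-NC. Of these 6 calls only that of ZNF277 held with the GC trend removed. Their median log2 fold change was 0.03, with 16 above 0 and 13 below.

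The list opened with KRAB-type genes and with repressors of repeats or imprints. ZNF274, which recruits SETDB1 to the ends of ZNF genes, was at 4.38 FPKM in THP1-NC and 4.47 FPKM in THP1-Bort, a log2 fold change of 0.02. ZNF587, a KRAB-type protein that binds endogenous retroviruses, was at 3.94 and 4.05 FPKM, a log2 fold change of 0.03. ZNF263 was at 4.74 and 3.45 FPKM, and ZNF589 at 4.87 and 3.17 FPKM, with log2 fold changes of -0.37 and -0.49. All 4 lay within 2-fold, and of them ZNF263 was scored without a KRAB-like box. Among the genes just inside the limit, ZNF521, a cofactor of haematopoietic progenitors that inhibits EBF1, had a log2 fold change of -0.68, or -1.20 without a pseudocount.

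Factors of promoters and enhancers were mostly at 2 to 9 FPKM in THP1-NC. ZNF281, a repressor of NANOG in embryonic stem cells, was at 6.32 FPKM in THP1-NC and 13.8 FPKM in THP1-Bort, a log2 fold change of 1.02. ZNF384, a fusion partner in acute leukaemia, was at 4.18 and 8.32 FPKM, a log2 fold change of 0.85. ZNF217, which works with the CtBP corepressor, was at 3.93 and 7.01 FPKM, a log2 fold change of 0.70. Only the first of these 3 passed 2-fold, but with the GC trend removed ZNF281 was at 0.70 and ZNF384 at 1.06, so that ZNF384 passed it instead. ZNF143, which binds the promoters of many housekeeping genes, had a log2 fold change of 0.67, and ZNF644, a partner of the methyltransferase EHMT2, one of 0.46 that was -0.09 with the GC trend removed. ZNF410, an activator of CHD4, was at 4.65 and 6.52 FPKM, a log2 fold change of 0.41, but 78.6% of its windows occur in another gene. ZNF335 (-0.06), ZNF131 (-0.10), ZNF687 (-0.42) and ZNF592 (-0.45) were at or below 0 in log2 fold change.

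Proteins of RNA, ribosomes and the spindle included the most abundant genes of the family. ZNF593 corresponds to the yeast 60S export factor Bud20, and ZNF622 to Rei1, which acts on the 60S subunit in the cytoplasm. ZNF622 was at 76.4 FPKM in THP1-NC and 48.6 FPKM in THP1-Bort, a log2 fold change of -0.64. ZNF598, the ubiquitin ligase that recognises collided ribosomes, was at 21.0 and 14.8 FPKM, a log2 fold change of -0.48. The nucleolar protein gene ZNF330 was at 19.1 and 12.7 FPKM, a log2 fold change of -0.55. These 4 genes all had lower FPKM in THP1-Bort, 1 of them by 2-fold. With the GC trend removed ZNF598 was at 0.13 and so changed sign, whereas ZNF330 was at -0.88.

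Other genes of this class were near equal or higher. ZNF830, a spliceosome-associated protein gene, was at 14.3 FPKM in THP1-NC and 20.5 FPKM in THP1-Bort, a log2 fold change of 0.49. ZNF326, which links transcription to splicing, was at 4.73 and 7.49 FPKM, a log2 fold change of 0.57. ZNF207, also called BuGZ, which helps spindle assembly through BUB3, was at 12.4 and 13.2 FPKM, a log2 fold change of 0.08. ZNF106 (0.16), the double-stranded RNA-binding ZNF346 (0.26) and ZNF638 (-0.28) also lay within 2-fold. Of the 5 ZNF genes with the highest level in THP1-NC (ZNF593, ZNF622, ZNF385A, ZNF428 and ZNF146), only ZNF146 was not lower in THP1-Bort, at 32.1 and 34.7 FPKM. ZNF146 encodes a protein made almost wholly of fingers.

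The family was then divided by what the choice of genes had not used. The 77 genes with a KRAB-like box had a median log2 fold change of 0.28, with 48 above 0 and 29 below, and 10.4% of them higher (8) and 6.49% lower (5) by 2-fold. The 93 genes without the box had a median of -0.20, with 38 above 0 and 55 below, and 8.60% of them higher (8) and 10.8% lower (10). The score can miss boxes that differ at its key residues. Among the 93 is ZNF788, a pseudogene with no annotated protein, which could not be scored. All genes at 2 FPKM or more in THP1-NC had 6.67% higher and 13.1% lower. The groups overlapped widely, with a range of -1.15 to 2.02 for the first and -2.57 to 2.41 for the second. The groups also differed in the level that chose the genes, with a median in THP1-NC of 3.52 FPKM for the KRAB-like genes and 5.45 FPKM for the others. Across the 170 genes that level had a Spearman correlation of -0.46 with the log2 fold change. Its part in the difference was not tested. The KRAB-like genes had a median transcript GC content of 44.5% and the others of 52.3%. Once the GC trend was removed the medians were 0.10 and 0.03, with 3 higher and 3 lower among the KRAB-like genes and 6 higher and 4 lower among the others. Of all genes at 2 FPKM or more in THP1-NC 5.41% were then higher and 7.61% lower.

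The number of fingers went with little difference. Genes with 0 to 3 fingers (28 genes) had a median of -0.26, and those with 4 to 7 (41 genes) one of 0.02. Genes with 8 to 12 fingers (56 genes) had a median of 0.14, and those with 13 or more (45 genes) one of 0.03. The Spearman correlation between the number of fingers and the log2 fold change was 0.12 across the 170 genes, which are not independent of each other. A SCAN-like box, a dimerisation domain, was found in 11 genes, with a median of 0.02. Of these 1 gene (ZNF24) was higher and 0 lower by 2-fold, beside 6.67% and 13.1% of all genes at 2 FPKM or more in THP1-NC.

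GC content of the transcript went with the direction of the difference. The Spearman correlation with the log2 fold change was -0.64 across the 170 ZNF genes and -0.52 across 8279 genes at 2 FPKM or more in THP1-NC with a matched transcript, all from the same 2 libraries. It was -0.61 in the 77 KRAB-like genes and -0.60 in the 93 others. Of the 21 ZNF genes at 40% GC or less 4 were higher and 0 lower by 2-fold, and of the 51 from 40% to 45% 10 were higher and 0 lower. All genes at 2 FPKM or more in THP1-NC had 17.5% higher and 1.00% lower in the first of these classes, beside 19.05% and 0% of the ZNF genes, and 10.1% and 2.20% in the other, beside 19.6% and 0%. Of the 53 above 55% GC, 1 (ZNF581) was higher and 12 were lower, or 1.89% and 22.6%, beside 2.32% and 27.0% of all such genes. The median was 0.57 at 40% or less, 0.59 from 40% to 45%, -0.20 from 45% to 50%, -0.36 from 50% to 55% and -0.45 above 55%. All genes at 2 FPKM or more in THP1-NC had medians of 0.51, 0.23, 0.02, -0.25 and -0.54 in the same classes. The cause of the trend was not tested.

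After the trend over all genes had been removed, 9 ZNF genes were higher and 7 lower by 2-fold, or 5.29% and 4.12%, beside 5.41% and 7.61% of all genes at 2 FPKM or more in THP1-NC. Of the 16 increased genes 7 kept their call, and of the 15 decreased genes 6 did. ZNF358 (1.26), ZNF384 (1.06) and ZNF595 (-1.05) passed 2-fold only after the removal. The correlation with GC content across the ZNF genes was then -0.13. ZNF280A (2.22), ZNF277 (1.70), ZNF823 (1.72), ZNF189 (1.46), ZNF280B (1.25) and ZNF92 (1.21) were among those that kept it, as were ZNF672 (-2.08), ZNF664 (-2.11) and ZNF428 (-1.48).

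The level in THP1-NC, which chose the genes, also ran against the fold change, and this is given as a description only. From 2 to 3 FPKM (47 genes) the median log2 fold change was 0.45, from 3 to 5 FPKM (55 genes) 0.15, from 5 to 10 FPKM (42 genes) -0.22 and from 10 FPKM (26 genes) -0.89. All genes in the table had medians of 0.22, 0.15, 0.00 and -0.33 in these classes. The 26 ZNF genes at 10 FPKM or more had a median GC content of 60.6%, and 11 of them (42.3%) were lower and 0 higher by 2-fold, beside 19.5% lower and 3.48% higher of all genes at that level. In THP1-Bort 30 ZNF genes were at 10 FPKM or more and 15 below 2 FPKM.

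Chromosome 19 held 56 of the 170 genes, with a median log2 fold change of 0.14, 6 higher and 6 lower by 2-fold (10.7% each). The other 114 genes had a median of -0.05, with 10 higher (8.77%) and 9 lower (7.89%). Beside these, 6.67% of all genes at 2 FPKM or more in THP1-NC were higher and 13.1% lower. On chromosome 19 the 35 KRAB-like genes had a median of 0.40, with 26 above 0, and the 21 without the box one of -0.31, with 15 below 0. The median GC content of these sets was 43.5% and 62.6%. Removing the GC trend gave medians of 0.10 and 0.07. On other chromosomes the 42 KRAB-like genes had a median of 0.06 and the 72 others one of -0.10. Of the other chromosomes, 7 held 19 genes with a median of -0.01, 16 held 16 with a median of -0.46 and 1 held 13 with a median of 0.37.

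Along chromosome 19 ZNF genes that follow each other in this set often differed in the same direction. These runs were chosen after their values were seen, and other genes lie between many of their members. From ZNF266 to ZNF562 all 5 genes were above 0, with a median of 0.93. From ZNF823 to ZNF700 all 3 genes, ZNF440 among them, were higher by 2-fold, with a median of 1.27. From ZNF83 to ZNF761 all 8 genes, each with a KRAB-like box, were above 0, with a median of 0.58. These 8 values are not all separate measurements. In this run ZNF28 and ZNF320 overlap ZNF468 on the same strand, and 99.5% of the windows of ZNF320 occur in another gene. ZNF320, ZNF468, ZNF888 and ZNF816 overlap the same further gene, whereas ZNF83, ZNF600 and ZNF761 overlap none. How fragments were divided among the genes of this run was not tested. From ZNF574 to ZNF296 all 5 genes, none with the box, were below 0, with a median of -0.62. From ZNF579 to ZNF444, also without the box, 7 of 8 were, with a median of -0.57 and ZNF581 as the exception. At the end of the chromosome the 9 KRAB-like genes from ZNF749 to ZNF584 were divided, 4 above 0 and 5 below, and its first 3, ZNF749, ZNF551 and ZNF586, were all below 0. With the GC trend removed the median was 0.55 for the run from ZNF266, 0.95 for that from ZNF823 and 0.15 for that from ZNF83. Those of the runs from ZNF574 and ZNF579 were -0.03 and 0.13. The run from ZNF749 had a median of -0.19, and of -0.36 with the trend removed.

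Short motifs bound by factors of stress responses were searched on both strands of the 146 matched promoters. The cAMP response element TGACGTCA was in 6.85% of the ZNF promoters and in 1.98% of all promoters, the E-box CACGTG in 8.90% and 7.43%. The antioxidant response element TGACNNNGC was in 15.8% and 13.6%, the NF-kB element in 6.85% and 5.67% and the heat shock element GAANNTTC in 6.85% and 6.87%. The composite element of ATF4 and CHOP, TGATGNAA, was in 0.685% and 3.67%. No pattern contains another, although matches may overlap in part. The cAMP response element was in 10 ZNF promoters, of which ZNF266 was among the increased and ZNF593 among the decreased genes. A match describes these letters only and not binding. The comparison is with all 27305 promoters, whatever the level of their genes. The ZNF promoters differ from these in composition, with a median GC content of 63.3% against 58.3% and 24 CG dinucleotides against 14. The part of composition in these shares was not tested.

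A list of 24 corepressor and chromatin genes was examined, all in the table. It holds TRIM28, SETDB1 and HP1 genes, and also genes of DNA methylation and other histone methyltransferases that are not particular to KRAB proteins. Of the 24 genes 1 was higher and 5 (TRIM28, UHRF1, DNMT1, EHMT2 and DNMT3A) were lower in THP1-Bort by 2-fold or more. The list had 18 genes below 0 and a median log2 fold change of -0.24. All genes in the table had a median of 0.005, with 8.08% higher and 10.2% lower. Only ATF7IP of the list was below 2 FPKM in THP1-NC (1.45 FPKM). All genes at 2 FPKM or more there had a median of -0.09, with 6.67% higher and 13.1% lower. From 10 FPKM in THP1-NC 19.5% of all genes were lower. TRIM28, the corepressor that KRAB boxes bind, was at 138.0 FPKM in THP1-NC and 62.4 FPKM in THP1-Bort, a log2 fold change of -1.13. UHRF1, which brings DNMT1 to replicated DNA, was at 33.9 and 8.05 FPKM, a log2 fold change of -1.95. DNMT1, the maintenance DNA methyltransferase, was at 37.1 and 16.2 FPKM, a log2 fold change of -1.14. ATF7IP2, a relative of the SETDB1 partner ATF7IP, was the gene that was higher, at 6.45 and 18.7 FPKM, a log2 fold change of 1.40. Without the GC trend the list had a median of -0.45, beside -0.08 for all genes at 2 FPKM or more in THP1-NC. Of the calls only that of UHRF1 (-1.66) held. TRIM28 was at -0.58, DNMT1 at -0.85 and ATF7IP2 at 0.99, all within 2-fold, as were EHMT2 (-0.62) and DNMT3A (-0.89). CBX5, an HP1 protein, was then past 2-fold (-1.22). SETDB1 itself, named for its role, was at 6.39 and 6.25 FPKM.

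Related zinc finger families were counted at 2 FPKM or more in THP1-NC, where 6.67% of all genes were higher and 13.1% lower by 2-fold. The 19 ZBTB genes had a median log2 fold change of 0.16, with 1 higher and 1 lower by 2-fold. The 11 ZSCAN and ZKSCAN genes had a median of 0.20, with 0 past 2-fold. The 5 ZFP genes had a median of 0.00, with 1 higher.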

How the data were processed

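RNA sequencing of 2 libraries, 1 per condition, was used. The authors mapped reads with HISAT2 2.0.4. From StringTie 1.2.3 they deposited 1 FPKM value per gene and library. The submitters' processing notes name GRCh37 as the genome build. The study describes a stranded KAPA kit for poly-A RNA, whereas the labels name a TruSeq kit. No column was left out for want of a sample (0 unused columns), and 7 rows with no gene name were left out.

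Fold changes were differences of log2(FPKM + 1), with a pseudocount of 1 FPKM and a threshold of 2-fold. No test was possible, and comparisons are described beside the percentage of all genes past 2-fold. Read depth could not be recovered, as only 15 (THP1-NC) and 20 (THP1-Bort) of 681 single-transcript genes had under 0.2 FPKM.

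The genes, lists and groupings were chosen with earlier results of these data known. Genes were named as the 10 largest increases and decreases, the 5 highest in THP1-NC, the 3 on either side of the limit, the members of the role list, and the 4 corepressor genes with the largest change. Genes past 2-fold outside this rule, SETDB1 and the runs on chromosome 19 were chosen after their values were seen.

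Transcript GC content, length, gene order and proteins came from GENCODE 29 (170 of 170 genes matched, 10907 of 10987 in all). This is another build than that of the files, so no coordinates were taken from it. A C2H2 finger was counted by its cysteine and histidine spacing. A KRAB-like box needed 8 of 10 key residues, and 1 more where the tryptophan was missing, in any coding transcript. On the same strand 34 ZNF genes overlap a protein-coding gene, 18 share 10% or more of their 75-base windows with another gene and 109 share none. Reads from such genes may be assigned to either. Promoters are those of RefSeq (GRCh38.p14), with 146 of 170 genes matched. The GC trend was removed by lowess over all genes with a span of 0.3. Calculations were checked on simulated data. Under Python 3.11.15, statsmodels 0.14.6 made the lowess fit, scipy 1.17.1 the rank correlations, matplotlib 3.10.9 the plots, and pandas 2.3.3 with numpy 2.4.6 the tables.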

Additional observations from a re-analysis of the deposited data

How the results depend on the processing

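No paired analysis was possible because only 1 library stands for each condition, and no replicate could be left out. The depth is unknown, so counting error could not be given. As reported, 16 ZNF genes were higher and 15 lower by 2-fold, with a median log2 fold change of 0.01. In what follows, the share of all genes chosen and scaled in the same way stands after the word beside. The number higher was 25 without a pseudocount (14.7%, beside 9.15%). It was 5 of the 68 genes at 5 FPKM or more in THP1-NC (7.35%, beside 5.05%) and 0 of the 26 at 10 FPKM or more (beside 3.48%). It was 32 of the genes at 2 FPKM or more in THP1-Bort (16%, beside 10%). It was 29 of those with a mean of 2 FPKM or more (15.2%, beside 9.07%) and 32 of every numbered ZNF gene in the table (9.91%, beside 8.08%). Removing the GC trend left 9 higher (5.29%, beside 5.41%) and 7 lower (4.12%, beside 7.61%). With both the mean and the GC trend 6 were lower (3.14%, beside 6.91%). At 1.5-fold 40 of the 170 genes were higher (23.5%, beside 17.9%) and 34 lower (20%, beside 25.98%). At 4-fold 3 of them were higher (1.76%, beside 0.565%) and 4 lower (2.35%, beside 1.62%). The median was -0.34 at 5 FPKM or more, -0.89 at 10 FPKM or more, 0.37 when chosen on THP1-Bort, 0.20 on the mean, 0.19 over every numbered ZNF gene and 0.14 on the mean with the GC trend removed. Without genes that overlap another it was -0.02, and without genes that share windows -0.03, so its sign was not fixed. The other scalings left it between 0.0047 and 0.097. With the largest of them all genes in the table had a median of 0.094, against 0.0049 as deposited. Removing the GC trend kept the calls of 7 of the 16 higher and 6 of the 15 lower genes and added ZNF358, ZNF384 and ZNF595. For the 21 genes past 2-fold named by the rule, all values under the other scalings and pseudocounts stayed past it, and 0 changed sign. Leaving out genes with shared windows and combining the mean with the GC trend were settings chosen after seeing the data. The cause of these shifts was not tested.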
